A study of Mus musculus with 37 samples.

Results

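The genes followed here mark the luminal cells of the mammary epithelium and were measured on 37 arrays of mouse mammary gland. The 10 genes were Krt8, Krt18, Krt19, Epcam, Cd24a, Cdh1, Cldn3, Wfdc2, Elf5 and Spint2. They were taken as all probe sets whose platform gene symbol is one of these names, which gave 19 of the 22690 probe sets and 10 of the 12393 genes named by the platform. All 10 genes passed the filter that left out the dimmest 25% of genes, so each was among the 9294 genes tested.

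Each array held biotin-labelled RNA of 1 female C57BL/6 mouse, with its left and right thoracic mammary glands pooled. The mice were 9 weeks old when they were assigned to groups and were followed for 6 weeks. The 9 CR+EX mice had 30% calorie restriction and a running wheel, and the 9 CR mice had the same restriction without a wheel. The 9 AL+EX mice ate freely and had a wheel, and the 10 AL mice ate freely without one. Restricted mice received 70% of the calories of AL mice and the full amount of all other nutrients. The labels name no altered allele and no drug in any group. The design asks what restriction and voluntary running do to gene expression in the gland, alone and together.

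Luminal cells form the inner layer of mammary ducts and alveoli and include the cells that make milk, while basal cells with muscle-like contractile genes surround them. Luminal cells hold keratin filaments of the simple epithelial type and are joined by cadherin contacts and claudin-based tight junctions. In a gland of a mouse that is not pregnant they lie as thin ducts in a large fat pad, so that luminal RNA is a minor share of the whole tissue.

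Promoter sequence was available from RefSeq (build GRCm38.p6) for 7 of the 10 genes, and 4 are shown because their genes stand for the filament proteins, the called secreted protein and the regulator described below. Each run is 300 bases, 5′ to 3′ on the gene's strand, with 250 bases before the annotated start and 50 after it. Capitals mark CACCTG or its reverse complement CAGGTG, the E-box that Snail and Zeb repressors of epithelial genes are known to bind.
Krt8 (chr15:102004293-102004592, minus strand): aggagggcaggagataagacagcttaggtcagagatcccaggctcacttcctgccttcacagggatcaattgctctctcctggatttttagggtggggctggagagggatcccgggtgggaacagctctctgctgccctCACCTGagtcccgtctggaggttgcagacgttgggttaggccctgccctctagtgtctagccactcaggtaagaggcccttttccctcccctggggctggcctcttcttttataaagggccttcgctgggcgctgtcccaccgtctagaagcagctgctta
Krt18 (chr15:102027966-102028265, plus strand): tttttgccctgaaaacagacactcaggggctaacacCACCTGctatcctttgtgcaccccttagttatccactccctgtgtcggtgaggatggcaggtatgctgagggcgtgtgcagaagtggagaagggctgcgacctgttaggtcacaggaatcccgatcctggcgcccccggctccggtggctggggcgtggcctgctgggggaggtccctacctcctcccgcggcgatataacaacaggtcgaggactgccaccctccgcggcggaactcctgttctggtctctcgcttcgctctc
Wfdc2 (chr2:164562465-164562764, plus strand): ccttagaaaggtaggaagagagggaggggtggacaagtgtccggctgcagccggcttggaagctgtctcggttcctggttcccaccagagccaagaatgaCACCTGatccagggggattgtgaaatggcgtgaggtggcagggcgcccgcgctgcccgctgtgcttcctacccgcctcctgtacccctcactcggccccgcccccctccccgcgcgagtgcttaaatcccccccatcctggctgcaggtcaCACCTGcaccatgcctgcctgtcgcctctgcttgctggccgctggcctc
Elf5 (chr2:103411848-103412147, plus strand, the first of its windows): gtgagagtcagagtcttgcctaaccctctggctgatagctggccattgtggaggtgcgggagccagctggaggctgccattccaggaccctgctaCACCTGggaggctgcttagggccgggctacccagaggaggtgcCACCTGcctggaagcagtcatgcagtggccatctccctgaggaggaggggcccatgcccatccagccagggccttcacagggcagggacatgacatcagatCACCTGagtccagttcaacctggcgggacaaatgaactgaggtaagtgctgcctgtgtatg

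The E-box lay 111 bases before the start of Krt8 and 214 bases before that of Krt18, its neighbour on chromosome 15. Wfdc2 had a match 150 bases before its start and another that begins 2 bases after it. The first Elf5 window had matches 155, 112 and 11 bases before the start. On either strand, CACCTG was found in the windows of 7 of the 7 genes, the others being Epcam, Cldn3 and Spint2. It was found in 20.2% of all 32851 windows of that length, and in any window of 22.6% of all genes and of 21.3% of the genes tested on the arrays. Among other luminal genes 16 of 22 with a window held it (72.7%), among basal genes 2 of 7 (28.6%) and among adipocyte genes 5 of 9 (55.6%). The ETS motif AGGAAG, read on both strands, was in the windows of 2 of the 7 genes, Krt8 and Wfdc2, in 35.4% of all windows and in any window of 38.4% of all genes. The letters of these motifs cannot overlap. A match describes the letters of a window and was not tested as a binding site.

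Some features of the arrays touch the results and come first. The animal numbers in the labels were split into 4 runs of 24 numbers. Run 1 ends at animal 22, run 2 at 48 and run 3 at 70, and run 4 follows after a wide gap. They hold 8, 11, 10 and 8 arrays, each with all 4 groups. The labels do not call a run a batch, and within a run the numbers rise with the group, so place in the run and group cannot be told apart. On 15 arrays the B lymphocyte genes were high, with a mean log2 signal of 7.96 to 10.21 against 6.27 to 7.08 on the other 22. These were 3 CR+EX, 4 CR, 4 AL+EX and 4 AL arrays, and they include all 8 arrays of run 4. In run 4, 3 arrays stood apart from the rest of their groups with low luminal signals: CR replicate 8, AL+EX replicate 8 and AL replicate 9. The ratio of the 3′ to the 5′ Gapdh probe set, a sign of RNA quality, was above 2 on 5 arrays, 2 of CR+EX and 3 of AL mice. Since the arrays measure whole glands, fewer luminal cells and less RNA per luminal cell cannot be told apart.

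All 10 luminal genes had a lower mean under calorie restriction, whichever the wheel access, and 2 of them, Cd24a and Wfdc2, passed the test over all genes. Restricted mice are the CR+EX and CR groups and unrestricted mice the AL+EX and AL groups, averaged with equal weight over wheel access. The difference, restricted minus unrestricted, was between -0.73 and -0.23 on the log2 scale, with a median of -0.46 against -0.02 over all genes tested. Of all 9294 genes, 55.19% had a difference below 0. With limma and Benjamini-Hochberg adjustment, 8.75% of all genes were called in either direction at an adjusted p under 0.05 and 4.56% were called lower, so that 2 of 10 luminal genes stand beside a background of 4.56%. Without adjustment 4 of the 10 had a p under 0.05, against 2224 of the 9294 genes. The errors below are standard errors of that fit unless SD is written.

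**Figure D1:**
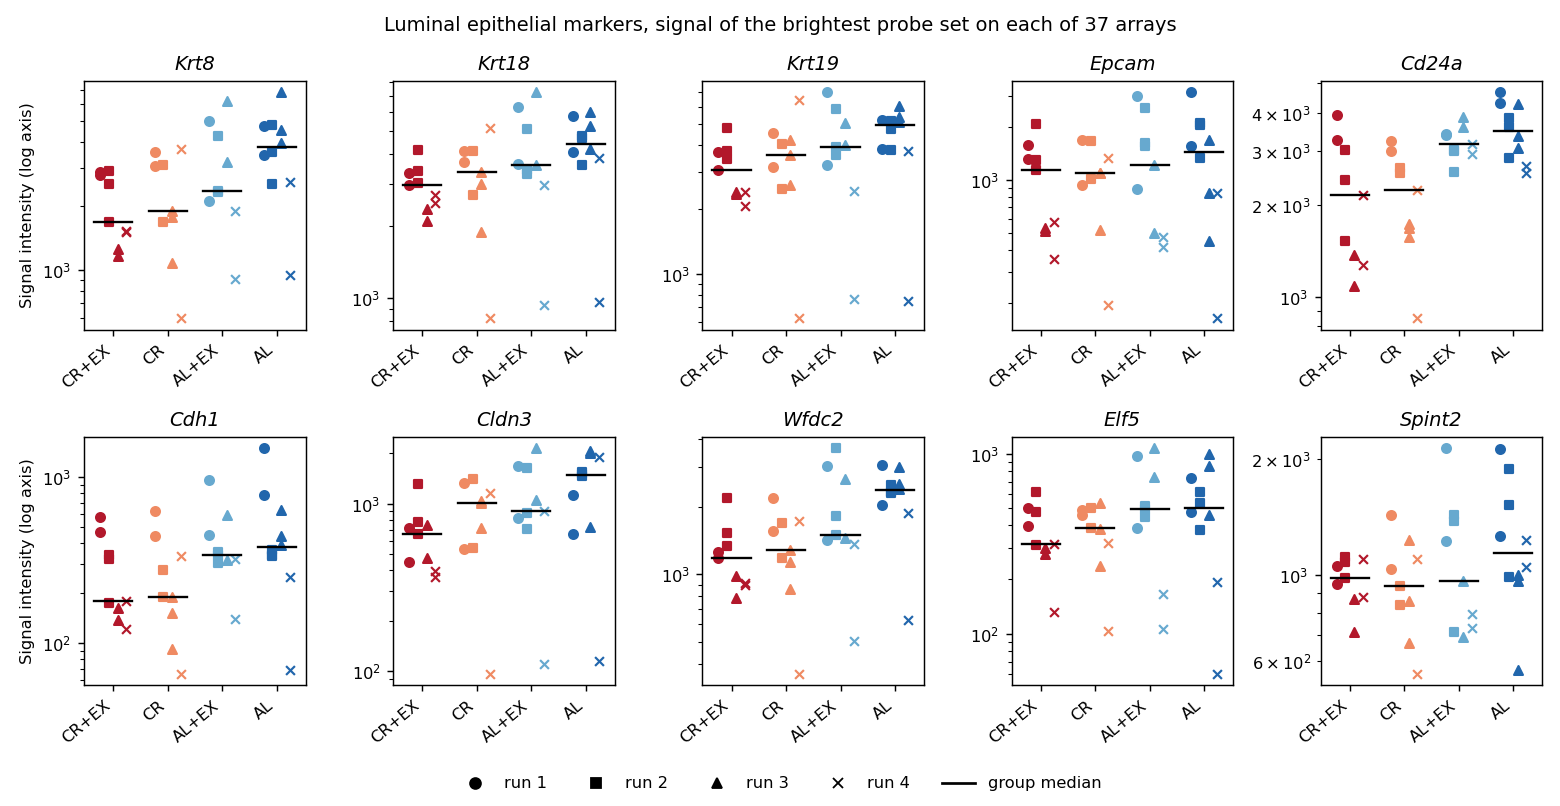
Signal intensity (log axis) of the 10 luminal genes on every array, for CR+EX, CR, AL+EX and AL mice, with 1 point an array; the marker shape gives the run of animal numbers. For Cd24a, 12 of the 18 restricted arrays lie below all 19 unrestricted ones, and the lowest keratin points of the CR, AL+EX and AL groups belong to run 4.

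The keratins 8, 18 and 19 are the filament proteins of simple epithelia, and Krt8 pairs with Krt18 in the same filament. Krt8 signals ran from 1162 to 2914 (median 1681) in CR+EX, 595.8 to 3678 (1896) in CR, 907.6 to 6186 (2361) in AL+EX and 951.3 to 6801 (3774) in AL glands. The ranges overlapped, but 16 of 18 restricted arrays lay below the median of the unrestricted ones and 8 of 19 unrestricted arrays lay above every restricted one. The difference was -0.65 ± 0.24 (95% interval -1.12 to -0.17, limma adjusted p = 0.078), which did not pass.

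Krt18 signals were 2090 to 4132 (median 2972) in CR+EX, 823.5 to 5103 (3367) in CR, 940.4 to 7221 (3604) in AL+EX and 963.3 to 5976 (4417) in AL glands. Its CR+EX arrays were packed closely, with an SD of 0.30 on the log2 scale against 0.79, 0.84 and 0.75 in CR, AL+EX and AL arrays. The difference was -0.38 ± 0.22 (limma adjusted p = 0.29). Krt19, which has a very short tail domain and is found in many ducts, had signals of 2069 to 4786 (median 3041) in CR+EX, 622.3 to 6422 (3567) in CR, 763.5 to 7004 (3910) in AL+EX and 749.4 to 6055 (4912) in AL glands. The groups overlapped over most of their range, with 1 unrestricted array above all restricted ones. Its difference was -0.28 ± 0.25 (limma adjusted p = 0.54). It was -0.14 without CR replicate 8 and -0.42 without AL+EX replicate 8.

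Another 3 of the genes encode proteins that hold the cells to each other. Cdh1 encodes E-cadherin, the adhesion protein of epithelial contacts. It had signals of 121.0 to 575.8 (median 178.6) in CR+EX, 65.1 to 621.8 (189.3) in CR, 139.7 to 963.3 (339.8) in AL+EX and 68.9 to 1500.0 (377.6) in AL glands. Both unrestricted medians were above both restricted ones, and the spread within groups was wide (SD 0.90 on the log2 scale). Its difference of -0.73 ± 0.28 was the lowest of the 10, 1.66-fold lower in restricted glands, with an interval of -1.29 to -0.16 and a limma adjusted p of 0.095.

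Epcam encodes an epithelial surface glycoprotein that carries weak contacts between cells and is widely used to sort luminal cells. Its signals were 355.7 to 2079 (median 1140) in CR+EX, 194.9 to 1684 (1099) in CR, 417.3 to 3011 (1218) in AL+EX and 163.4 to 3158 (1443) in AL glands. No group separated from another, and the difference was -0.27 ± 0.32 (interval -0.91 to 0.37, limma adjusted p = 0.66). It was -0.14 without CR replicate 8, -0.42 without AL replicate 9 and -0.77 on the 22 arrays of low B lymphocyte signal. Cldn3 encodes a claudin that seals tight junctions. Its signals were 362.9 to 1309 (median 659.5) in CR+EX, 96.5 to 1394 (1015) in CR, 111.1 to 2149 (905.3) in AL+EX and 115.3 to 2056 (1481) in AL glands. The CR median was above the AL+EX median, so the groups did not line up by diet, although 9 of 19 unrestricted arrays exceeded all restricted ones. The difference was -0.55 ± 0.33 (interval -1.21 to 0.11, limma adjusted p = 0.31).

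Cd24a, which encodes a small lipid-anchored sialoglycoprotein of the cell surface used with Epcam to sort mammary epithelium, had the smallest adjusted p of the 10. It is also known from B lymphocytes and red cell precursors. Its signals were 1084 to 3928 (median 2159) in CR+EX, 849.0 to 3232 (2228) in CR, 2567 to 3873 (3157) in AL+EX and 2536 to 4670 (3486) in AL glands. The unrestricted arrays were tightly grouped, with an SD of 0.25 on the log2 scale against 0.61 in restricted ones, and 17 of 18 restricted arrays lay below the unrestricted median. The fall was 1.63-fold (-0.71 ± 0.15, interval -1.01 to -0.41, limma adjusted p = 0.0024).

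Wfdc2 encodes a small secreted protein with whey acidic protein folds, made by many ducts. Its signals were 784.7 to 2176 (median 1187) in CR+EX, 360.1 to 2191 (1276) in CR, 505.1 to 3651 (1501) in AL+EX and 623.4 to 3067 (2367) in AL glands. Every one of the 18 restricted arrays lay below the median of the unrestricted ones, and 10 of 19 unrestricted arrays lay above every restricted one. The fall was 1.59-fold (-0.67 ± 0.21, interval -1.09 to -0.24, limma adjusted p = 0.041). The call was lost without the filter on dim genes (adjusted p = 0.052), with each array centred on its median (0.089) and without the 5 arrays with a Gapdh ratio above 2 (0.11).

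Spint2, which encodes a membrane-bound inhibitor of serine proteases, varied least, by 3.78-fold between its lowest and highest array. Its signals were 712.3 to 1115 (median 982.7) in CR+EX, 555.2 to 1436 (938.7) in CR, 694.1 to 2141 (966.8) in AL+EX and 567.2 to 2123 (1146) in AL glands. The medians lay close together and the upper ends of the unrestricted groups reached higher. The difference was -0.23 ± 0.14 (interval -0.52 to 0.06, limma adjusted p = 0.34).

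Elf5, the ETS-family transcription factor that drives the alveolar luminal fate and milk gene expression, was the only regulator among the 10. Its signals were 132.1 to 614.6 (median 316.3) in CR+EX, 102.8 to 533.6 (383.9) in CR, 105.7 to 1076 (491.1) in AL+EX and 59.7 to 991.6 (501.2) in AL glands. The unrestricted groups held both the highest and the lowest arrays. The difference was -0.33 ± 0.28 (interval -0.89 to 0.23, limma adjusted p = 0.51).

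Every one of the 19 probe sets had a difference below 0. Tested singly among all 22626 probe sets that are not controls, 2 were called lower, where the background was 2.57%, and both belong to Cd24a. The 3 Cd24a probe sets gave -0.71 (limma adjusted p = 0.0039), -0.76 (0.0051) and -0.44 (0.23), so the third did not pass. Among the 4 Cldn3 probe sets the difference ran from -0.77 to -0.51, and among the 3 of Krt8 from -0.70 to -0.52. The dimmer Elf5 probe set correlated with the brighter one at only 0.28 across the arrays, and they gave -0.20 and -0.33.

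**Figure D2:**
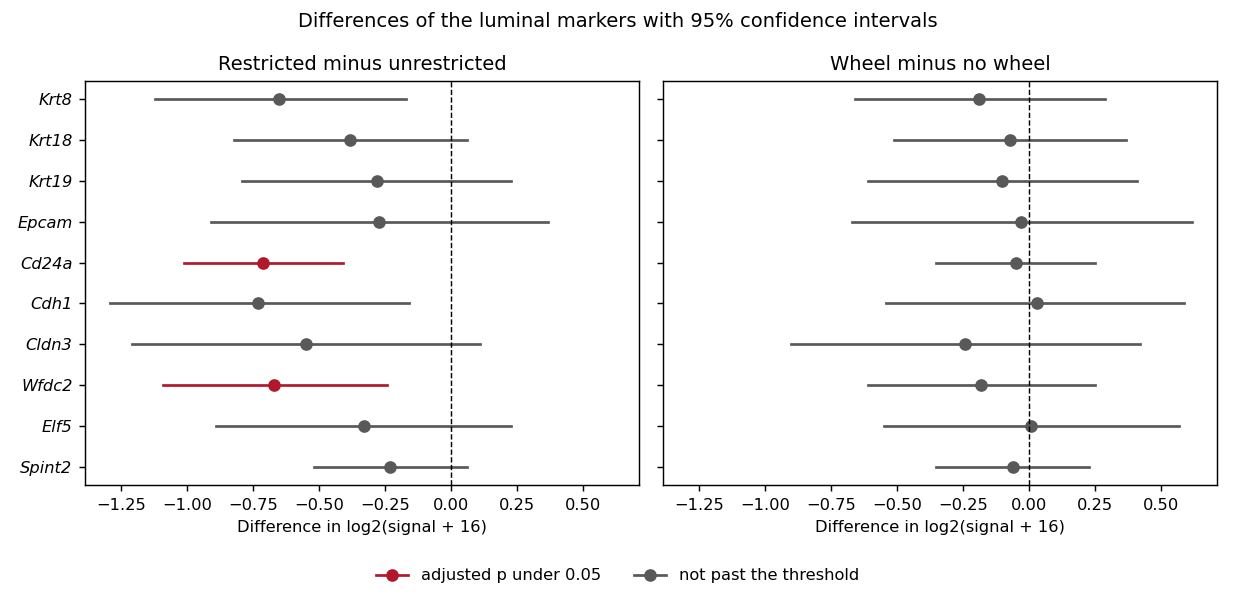
Log2 difference of each of the 10 luminal genes with its 95% interval, for restricted against unrestricted glands and for wheel against no wheel. All 10 restriction differences lie below 0 (-0.73 to -0.23) and the wheel differences lie between -0.24 and 0.03.

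Between single pairs of groups no luminal gene passed. In CR against AL glands the median difference was -0.50 and all 10 were below 0, with 4 at an unadjusted p under 0.05. In that comparison limma called 0.441% of all genes, and 1386 genes had an unadjusted p under 0.05. The smallest adjusted p was that of Cd24a, -0.77 with a limma adjusted p of 0.067, and Wfdc2 gave -0.80 (0.18). In CR+EX against AL+EX glands the median was -0.43 with all 10 below 0 and 1 of 10 at an unadjusted p under 0.05, where limma called 1.65% of all genes and 1413 had such a p. Cd24a was again first, at -0.65 with a limma adjusted p of 0.11. With both treatments together, CR+EX against AL, the median was -0.57 and 3 of 10 had an unadjusted p under 0.05, where limma called 0.624% of all genes and 1222 had such a p. There Cd24a gave -0.76 (limma adjusted p = 0.068) and Wfdc2 -0.84 (0.17). CR against AL and CR+EX against AL share the AL arrays.

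Wheel access left no luminal gene past the test. Averaged over diet, wheel minus no wheel gave differences between -0.24 (Cldn3) and 0.03 (Cdh1) with a median of -0.07, and limma called 0 of 10 members and 0% of all genes. The smallest unadjusted p among the 10 was 0.41, of Wfdc2, and 266 of all genes had an unadjusted p under 0.05. For Cd24a the 95% interval of the wheel difference was -0.35 to 0.25, and for Cldn3 it was -0.90 to 0.42, so differences of that size cannot be told from 0 here. In CR+EX against CR glands 0 of 10 were called (0% of all genes, 83 genes and 0 members with an unadjusted p under 0.05), with a median of -0.02. In AL+EX against AL glands 0 of 10 were called (0% of all genes, 600 genes and 0 members with such a p), with a median of -0.16.

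The restriction difference was also compared between mice with and without a wheel. This interaction had a median of 0.15 over the 10 genes and lay between -0.05 (Elf5) and 0.27 (Krt8 and Wfdc2). A positive value means a smaller fall with the wheel. None of the 10 was called by limma, nor was any gene (0%), and 0 members and 295 genes had an unadjusted p under 0.05. The intervals were wide, -0.69 to 1.22 for Krt8 and -0.48 to 0.72 for Cd24a.

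The size of the difference varied over the runs of animal numbers, and the test of that variation passed for no luminal gene. In run 3 the 10 differences had a median of -1.12, against -0.48 in run 1, -0.39 in run 2 and -0.01 in run 4. Krt8 in run 3 had signals of 1087 to 1896 in the 5 restricted and 3212 to 6801 in the 5 unrestricted glands, without overlap. Krt18, Cd24a, Cdh1 and Wfdc2 also had no overlap there, and Spint2 at 0.05 was the exception to the sign. For these 5 of 10 genes every restricted array lay below every unrestricted one, as it did for 5.27% of all genes in that run. Within run 4, Cd24a had no overlap, with 849.0 to 2228 in restricted and 2536 to 3157 in unrestricted glands, where 4.38% of all genes were so separated. Relative to the mean of Krt8, Krt18 and Krt19, Cd24a differed by 0.14, -0.06 and -0.11 in runs 1 to 3 and by -1.19 in run 4. The B lymphocyte mean also had no overlap in run 4, with 8.81 to 9.47 in restricted and 9.81 to 10.21 in unrestricted glands. Its part in the Cd24a values was not tested. In that run 5 of the 10 had higher means in restricted glands: Krt8 (0.07), Krt18 (0.36), Krt19 (0.48), Epcam (0.23) and Elf5 (0.62). These means rest on 4 restricted and 4 unrestricted arrays. Of the arrays that stood apart as low, CR replicate 8 is restricted, and AL+EX replicate 8 and AL replicate 9 are unrestricted. Cd24a, Cdh1, Cldn3 and Wfdc2 were lower in restricted glands in each of the 4 runs. Whether the restriction difference itself varied between runs was tested with a limma F test over all genes. It called 0 of the 10 and 1.07% of all genes, with 4 members and 1601 genes at an unadjusted p under 0.05. The smallest adjusted p values were those of Cd24a (0.079), Elf5 (0.084) and Krt8 (0.1).

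**Figure D3:**
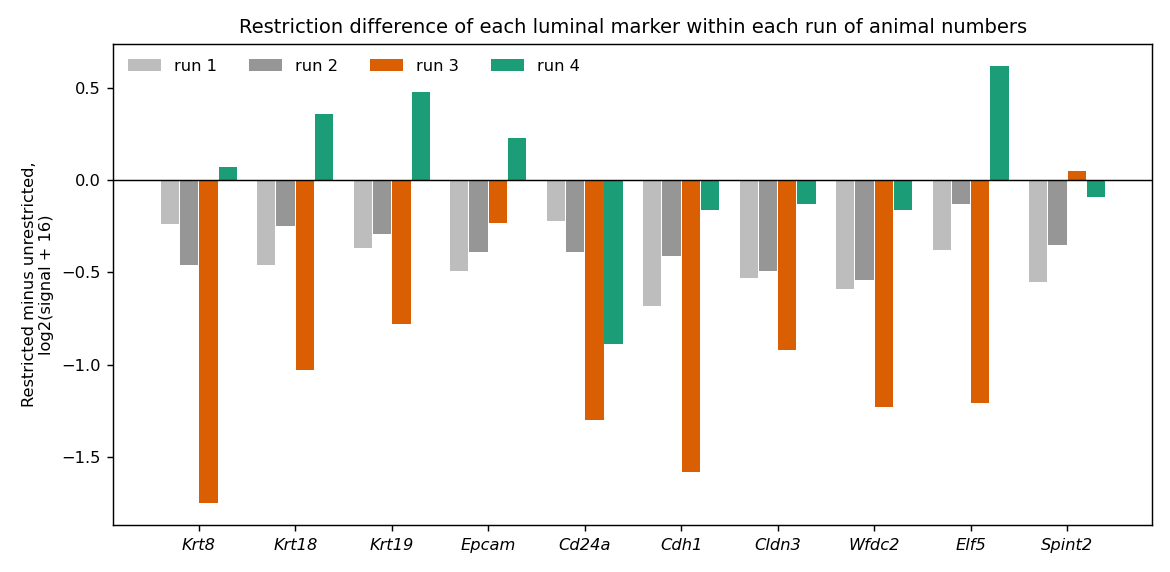
Mean log2 signal difference, restricted minus unrestricted glands, of each of the 10 luminal genes within each of the 4 runs of animal numbers. Run 3 lies lowest, with a median of -1.12, and run 4 lies around 0, with a median of -0.01.

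With the run as a block, 4 of the 10 were called lower by limma, where the background rose to 10.1%: Krt8 (-0.64, adjusted p = 0.024), Cd24a (-0.70, 0.00011), Cdh1 (-0.73, 0.0055) and Wfdc2 (-0.65, 0.0074). The runs were then left out one at a time. Without run 1 the count stayed at 2, Cd24a and Cdh1 (-0.77, limma adjusted p = 0.047), beside 4.3% of all genes called lower, and without run 2 it was 1, Cd24a, beside 3.03%. Without run 3, 0 of the 10 were called, beside 0.312% of all genes called lower, with 2 members and 1163 genes at an unadjusted p under 0.05, and Cd24a gave -0.49 (limma adjusted p = 0.2) and Wfdc2 -0.47 (0.52). Without run 4, 8 of the 10 were called lower, all but Epcam and Spint2, with a median of -0.61, beside 5.55% of all genes. The call of Cd24a held in each of the 37 fits that left out 1 array, with -0.77 to -0.63, and that of Wfdc2 in 16 of the 37, with a limma adjusted p of up to 0.07. Wfdc2 also missed the threshold without run 1 (0.079) and without run 2 (0.12).

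Of the B lymphocyte genes, which were high on 15 arrays, 0 of 10 tested were called for restriction and 0 had an unadjusted p under 0.05. Their median difference was -0.41, and their summed signal was 766 to 8109 in restricted and 902 to 13799 in unrestricted glands, with none of the 11 measured genes at a median signal under 16. Leaving out the 15 high arrays gave 7 of 10 luminal genes called lower on 22 arrays, where 3.31% of all genes were called lower, with a median of -0.71: Krt8, Krt18, Krt19, Cd24a, Cdh1, Wfdc2 and Elf5. There Cd24a was -0.69 (limma adjusted p = 0.019) and Wfdc2 -0.91 (0.0075), against -0.71 and -0.67 with all arrays. The rest, Epcam (-0.77, limma adjusted p = 0.073), Cldn3 (-0.72, 0.064) and Spint2 (-0.44, 0.13), did not pass. The 15 arrays left out include all 8 of run 4. Leaving out run 4 alone gave 8 of 10 called lower, with a median of -0.61. The fit on 22 arrays therefore cannot tell lymphocyte signal from run, and their separate parts in it were not tested. With the B lymphocyte mean as a covariate, 4 were called lower, beside 6.17% of all genes. Of the 3 arrays that stood apart, CR replicate 8 was low in both Krt18 (823.5) and Cd24a (849.0). AL+EX replicate 8 and AL replicate 9 had Krt18 signals of 940.4 and 963.3 and Cd24a signals of 2923 and 2536. Over the 8 arrays of run 4, Cd24a correlated with Krt8 at 0.77, with Krt18 at 0.67 and with Krt19 at 0.69 once group means were removed. These r values rest on few arrays, and the 3 that stood apart are among them.

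**Figure D4:**
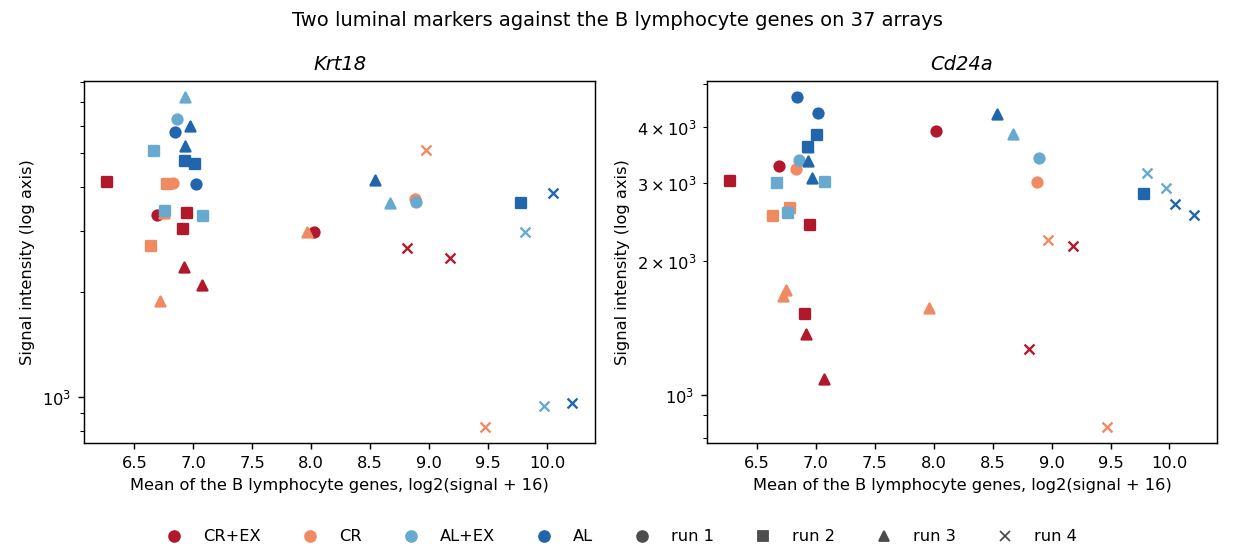
Signal intensity (log axis) of Krt18 and Cd24a against the mean log2 signal of the B lymphocyte genes, 1 point an array, with colour for the group and shape for the run. The highest Krt18 signal (7221) lies among the 22 arrays at 6.27 to 7.08, and the lowest Krt18 points (823.5, 940.4 and 963.3) lie in run 4 at high lymphocyte signal.

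Other epithelial lists were set beside the 10 genes. Of 25 other luminal genes tested, 22 had a difference below 0, beside 55.19% of all genes, with a median of -0.33. The lists were chosen with earlier results of these data known. Some of these genes vary with the 10, as Krt7 did (Pearson r 0.919), so the count is not independent of the 10. Of the 25, 2 were called lower, beside 4.56% of all genes, and none was called higher. Those called were Dsg2 (-0.57 ± 0.16, limma adjusted p = 0.024), a desmosomal cadherin, and Spint1 (-0.64 ± 0.17, 0.014), a protease inhibitor related to Spint2. With the run as a block 6 of the 25 were called lower, beside 10.1% of all genes. They were these and Cldn4 (limma adjusted p = 0.034), Dsp (0.031), Prss8 (0.017) and Prom1 (0.025). Among the regulators and receptors 0 of 10 were called, and Grhl2, a transcription factor of epithelial junction genes, had the smallest p (-0.35 ± 0.18, 0.22). The mean of the 9 tested keratin and junction genes of that list entered the limma fit as a covariate, chosen after seeing the data. Cd24a alone of the 10 was called (-0.55, limma adjusted p = 0.0086), beside 5.48% of all genes called lower. The median of the 10 was -0.02. Against the Krt8, Krt18 and Krt19 mean, Cd24a differed by 0.14, -0.06 and -0.11 in runs 1 to 3 and -1.19 in run 4. Its median r with the other members was 0.52, and what its call reflects was not tested.

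The basal genes as a list did not share the direction. Of 10 basal genes tested none was called and 8 had a difference above 0, with a median of 0.17. Krt14, a basal keratin, gave 0.42 ± 0.30 (limma adjusted p = 0.43), but Krt5 gave 0.02 ± 0.20. Below 0 were Trp63 (-0.22 ± 0.15) and Itga6 (-0.18 ± 0.13). Oxtr, the oxytocin receptor, had the smallest p (0.30 ± 0.13, limma adjusted p = 0.15), with a limma adjusted p of 0.04 once the run was a block. The summed signal of the basal list was 3876 to 9594 (median 7956) in restricted and 3296 to 9766 (6627) in unrestricted glands. Acta2 alone had a median signal of 3655 in restricted and 3236 in unrestricted glands. None of 5 milk protein genes was called (median 0.17), and Csn3, a casein, gave 0.34 ± 0.22 (limma adjusted p = 0.37). The difference between the luminal and basal lists was not itself tested.

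Over all 9294 genes tested, 389 were called higher in restricted glands. Of the other cell types, 1 of 10 adipocyte genes was called higher, Retn, the hormone resistin (0.64 ± 0.19, limma adjusted p = 0.033), with a list median of 0.19. Their summed signal was 81472 to 171647 in restricted and 88806 to 196607 in unrestricted glands. Of 2 red blood cell genes, Alas2, the haem synthesis enzyme of red cell precursors, was called higher (0.67 ± 0.19, limma adjusted p = 0.021), and the haemoglobin gene Hba-a1 gave -0.15 ± 0.21 (0.72). Skeletal muscle (0 of 8, median -0.10, first by p Myh4), skin and hair (0 of 5, -0.07, Lor), fibroblasts (0 of 7, 0.22, Lum) and endothelium (0 of 6, 0.13, Kdr) had no call. In these lists Lum and Kdr had an unadjusted p under 0.05, at 0.022 and 0.014. Both were called higher with the run as a block (limma adjusted p = 0.039 and 0.029), as was the adipocyte lipase Pnpla2 (0.25, 0.018). That fit called 802 of all genes higher. The summed signal of the muscle list was 127590 to 292264 (median 181297) in restricted glands. In unrestricted glands it was 90451 to 353360 (174909). The part of these cell types in the luminal differences was not tested.

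The luminal genes rose and fell together from array to array. After the group means were subtracted, the Pearson correlation over the 37 arrays had a median of 0.74 over the 45 pairs, from 0.24 for Elf5 with Spint2 to 0.96 for Krt18 with Krt19. The median Spearman rho was 0.66. In permutation tests with 100000 resamples, 44 of the 45 pairs passed after Benjamini-Hochberg adjustment by Pearson and 40 by Spearman, and 1e-05 is the smallest p that so many resamples can give. The pairs share arrays and their scaling. Arrays were permuted within groups but across runs, so a shift shared by a run can add to these counts. Pairs of other genes were not tested, so no background stands beside the counts. With both run and group means subtracted, the median r was 0.73, from -0.05 to 0.95. For Krt18 with Krt19, rho was 0.92 and both permutation p values were 1e-05, adjusted to 1.7e-05 for r and 2.1e-05 for rho. The arrays of run 4 carried part of this: without them the median r was 0.55 over 29 arrays and 32 pairs passed, and without the 2 arrays farthest from the median of the first gene it was 0.64.

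Within the runs the median r was 0.89, 0.65, 0.60 and 0.90 in run 1 to run 4. Runs 1 and 4 hold only 8 arrays each over 4 groups. Once group means are removed, few values are left there, and high r is easily reached. In run 3, where the diet difference was widest, 9 of the 45 pairs were below 0 once group means were removed. Cd24a and Spint2 followed the others least, with median r of 0.52 and 0.43, against 0.83 for Krt8 and Krt18 and 0.85 for Krt19.

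**Figure D5:**
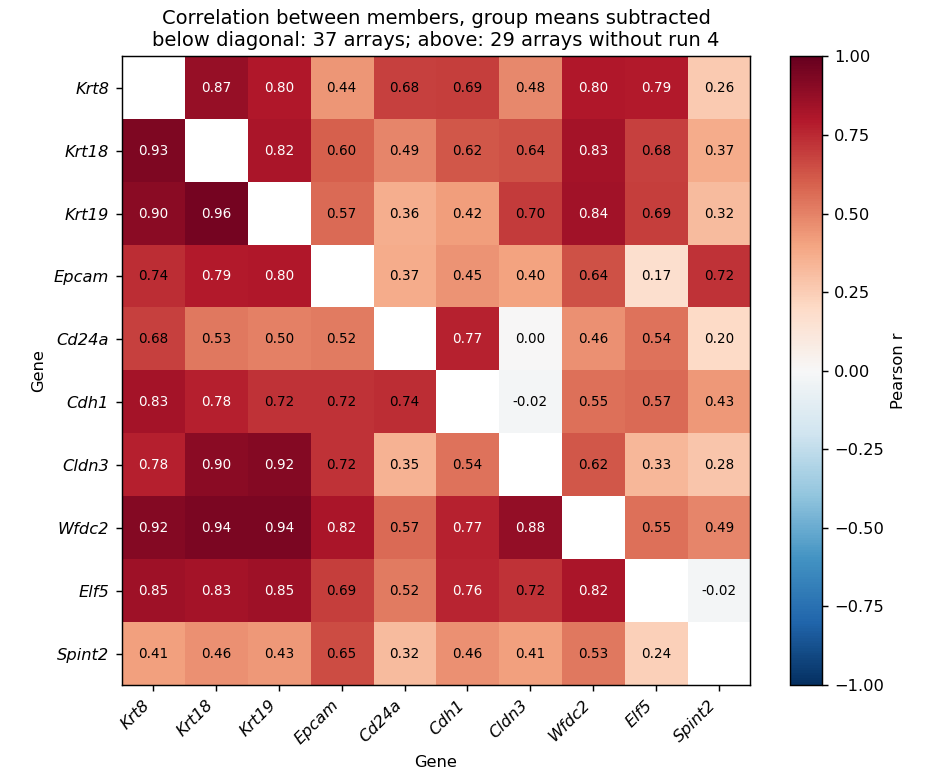
Pearson correlation of each pair of the 10 luminal genes after subtracting group means, over 37 arrays below the diagonal and over the 29 arrays without run 4 above it. Over the 37 arrays, Krt18 with Krt19 is the strongest of the 45 pairs (0.96) and Elf5 with Spint2 the weakest (0.24). Without run 4 the pairs lie between -0.02 and 0.87.

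Outside the list, the genes whose pattern was most like the scaled mean of the 10, over the 37 arrays and without adjustment for group, were Ptprf (Pearson r 0.956), Slc12a2 (0.937), Fxyd3 (0.931), Esrp1 (0.930), Foxa1 (0.922), Krt7 (0.919), Tmc4 (0.903), Tmem30b (0.898), Grhl2 (0.898) and Erbb3 (0.893). Ptprf is a receptor tyrosine phosphatase of cell contacts, Slc12a2 a sodium, potassium and chloride cotransporter, Esrp1 an epithelial splicing factor, Foxa1 a partner of the oestrogen receptor in luminal cells and Erbb3 a receptor of neuregulins. Of these, Tmc4 was called lower in restricted glands (-0.53 ± 0.15, limma adjusted p = 0.024), beside 4.56% of all genes called lower. The genes were picked on the same arrays by likeness to a mean that was itself lower under restriction. Their lower values thus follow in part from the choice. Ptprf gave -0.49 ± 0.20 (0.12) and Erbb3 -0.53 ± 0.20 (0.087), which did not pass.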

How the data were processed

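The data were 37 Affymetrix arrays of mouse mammary gland, 1 array a mouse. Each deposited value was a signal intensity on a linear scale, and the authors had scaled every array to the same trimmed mean (500.2 after trimming 2% at each end). The submitters' processing notes name GCOS version 1. The algorithm behind the signals is not stated by any label or header used here. Arrays carry no counts, so their number limits the precision.

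Signals were taken as log2(signal + 16). Gene names came from the platform table: 20380 probe sets named 1 gene, 691 several and 1555 none, and 64 were controls. The brightest probe set stood for each gene, and the dimmest 25% of genes (below 6.71, a signal of 88.7) were left out. Group means were fitted to all arrays with limma 3.58.1 in R 4.3.3, with 33 residual degrees of freedom and empirical Bayes variances that follow the mean. Tests were two-sided, adjusted by Benjamini-Hochberg over the 9294 genes of each contrast and called under 0.05. The fit was tested on simulated data with known differences. Runs are blocks of 24 animal numbers. Correlations used 100000 permutations within groups.

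The alternatives were other pseudocounts, filters, probe set rules, scalings, array weights, a fit with the run as a block, arrays or runs left out and covariates. Leaving out whole runs and the keratin and junction covariate were chosen after seeing the data. Named genes were the 10 luminal genes, up to 2 called members each way of every other list (or the smallest p) and the 10 genes most like the luminal mean. Outside that rule, Krt14, Krt5, Trp63, Itga6, Acta2 and Hba-a1 were also named. So were list genes called only with the run as a block. The members and lists were chosen with earlier results of these data known. Promoter windows came from RefSeq (GRCm38.p6), and no genome positions come from the arrays.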

Additional observations from a re-analysis of the deposited data

Results flagged for a closer look

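Within the 4 groups, 12 of 40 gene and group combinations had a lowest array set apart from the others by more than Dixon's 95% limit, where chance gives about 1 in 20. Each was a low value of CR replicate 8, AL+EX replicate 8 or AL replicate 9, all of run 4. In CR replicate 8 they were Krt19 (622.3, the next CR value being 2491), Cldn3 (96.5, next 538.4) and Elf5 (102.8, next 238.6). In AL+EX replicate 8 they were Krt18 (940.4, next 2974), Krt19 (763.5, next 2429), Cldn3 (111.1, next 705.9) and Wfdc2 (505.1, next 1368). In AL replicate 9 they were Krt8 (951.3, next 2537), Krt18 (963.3, next 3593), Krt19 (749.4, next 3750), Cldn3 (115.3, next 661.6) and Wfdc2 (623.4, next 1876). These values are not independent, since the same arrays are low in several genes that vary together. The B lymphocyte mean was 9.47, 9.97 and 10.21 on these arrays, and its part in the low values was not tested.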

How the results depend on the processing

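The number of luminal genes called for restriction, 2 by the design as written, became 1 without a filter on dim genes, with all probe sets tested singly, with median centring, without the arrays of high Gapdh ratio, without run 2 and with the keratin and junction mean as a covariate, fits that called 585 to 1117 of all genes. It became 4 with the run as a block and with the B lymphocyte mean as a covariate, 7 with the 15 arrays of high B lymphocyte signal removed, 8 without run 4 and 0 without run 3. Leaving out single arrays gave 1 to 4. In CR against AL glands the count of 0 (41 of all genes) became 3 with the run as a block (573 of all genes), 2 with the B lymphocyte covariate (193) and 0 to 1 with single arrays left out. In CR+EX against AL+EX glands (153 of all genes) it became 1 with the block (558), 1 without high Gapdh ratios (218) and 0 to 1 with single arrays left out. In CR+EX against AL glands (58 of all genes) it became 1 with quantile normalization (60), 2 with the block (347), 2 with the B lymphocyte covariate (127) and 0 to 1 with single arrays left out. The count of members whose restriction difference varied between runs was 0 by the design as written (99 of all genes) and 0 to 3 over the alternatives. That range and the counts with single arrays left out have no share of all genes beside them. They are not read as results about the members. Signs turned for Krt18 (0.04), Krt19 (0.20), Epcam (0.30), Cldn3 (0.03) and Elf5 (0.18) with the keratin and junction covariate, for Spint2 in CR+EX against AL+EX (0.02 without AL+EX replicate 2, and -0.19 to 0.02 over all single arrays left out) and for Epcam in CR against AL (0.01 without CR replicate 8, and -0.56 to 0.01 over all). The cause was not tested. Median centring split all called genes into 491 higher and 180 lower, quantile normalization into 424 and 313, against 389 and 424 as reported. No paired analysis was possible because animal numbers are unique and groups share none.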
